A study of Mus musculus with 7 samples.

Results

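The genes of the cytosolic ribosomal proteins were described in the retina of WT and SCA7 mice. Members were the protein-coding genes whose GRCm38 symbol is *Rpl* or *Rps* followed by a number, with or without a letter suffix, together with *Rplp0*, *Rplp1*, *Rplp2* and *Rpsa*. Genes of the *Rps6k* kinases, pseudogenes and symbols ending in -ps were left out. This gave 85 of the 52550 genes counted, 49 for the large (60S) subunit, 33 for the small (40S) subunit and 3 for the P stalk. Among the 20128 genes with enough counts to be tested, 81 were members. The other 4 were *Rpl10l*, *Rpl39l*, *Rpl3l* and *Rps27rt*, which are paralogs of other members.

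Every mouse was of the C57BL/6J strain and 12.5 weeks old. The 3 SCA7 mice were homozygous for a knock-in allele that puts an expanded CAG repeat into exon 1 of their own *Atxn7* gene, under its own promoter and therefore in every cell that uses it, and the 4 WT mice carried no such allele. Total RNA from both retinas of a mouse was freed of ribosomal RNA and made into 1 stranded library per mouse, read from a single end. In the labels neither litter nor sex is stated, and according to the study's methods males and females were used.

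Ribosomal proteins and ribosomal RNA together form the ribosome, whose small subunit decodes the mRNA and whose large subunit joins the amino acids, while the P stalk of the large subunit recruits elongation factors. Their mRNAs are among the most abundant in most cells, and most of them start with a run of pyrimidines (the TOP motif) through which mTORC1 signalling sets their translation. Mammalian genomes also hold many processed pseudogenes of these genes, so that a short read can match more than 1 locus. Some members serve as reference genes in RT-qPCR, *Rplp0* (36B4) among them in this study, and the comparison asks how their mRNA stood in the retina of this model.

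Total counts per library lay between 56497675 and 96635832. In SCA7 all 10 of 10 rod markers and all 10 of 10 cone markers were downregulated (medians of -1.20 and -1.96 on the log2 scale). The summed level of the rod markers was between 64120.0 and 66142.0 CPM (the counts of a gene relative to the library size after TMM scaling) in WT and between 17293.8 and 22310.9 CPM in SCA7. All 13 of 13 microglia markers and 9 of 11 reactive glia markers were upregulated, with medians of 1.08 and 2.30. No marker of these lists was at 0 in any library. In RNA from whole retina, fewer cells of a type and less RNA per cell cannot be told apart, and the part of the altered cell composition in the values below was not tested.

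The cytosolic ribosomal protein genes stayed close to the WT level as a set, and a single member was called. A gene was upregulated at an adjusted p under 0.05 and a fold change (FC, SCA7/WT) above 1.3, and downregulated where FC was under 0.7 at the same adjusted p. The test was the quasi-likelihood test of edgeR, adjusted by Benjamini-Hochberg over every gene tested. By this rule 1 of the 81 members (1.23%) was upregulated, *Rpl10*, and 0 were downregulated, while 7.47% of all genes tested were upregulated and 7.91% were downregulated. Without the FC limit, *Rpl10* was higher and *Rpl10a* was lower, against 14.2% of all genes tested higher and 14.2% lower. At an unadjusted p under 0.05 there were 7 members (8.64%), beside 39.7% of all genes tested and 43.8% of the genes of like level described next, and DESeq2 called 1 member up and 0 down. These counts depended on scaling, covariates and single libraries. Scaling by total counts gave 7 upregulated and 34 higher (42% of members, beside 36.2% of all genes in that fit). Without WT replicate 3, 18 were higher (22.2%, beside 17.5%). Without WT replicate 4, 0 were upregulated and 7 lower (8.64%, beside 14.1%). With the length and GC correction 14 were higher (17.3%, beside 16.6%). With the *Xist* covariate 11 were higher (13.6%, beside 18.6%) and 6 lower (7.41%, beside 17.3%). With the replicate number as a block 0 were upregulated and 17 lower (21%, beside 17%). The median log2 fold change of the members was -0.03, with quartiles of -0.09 and 0.07, beside -0.02 for all genes tested and 0.03 for the 7625 protein-coding genes of like level (mean log2 CPM within the range of the members). Of those genes of like level, 4.51% were upregulated and 4.35% downregulated.

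The intervals say how large a change these libraries leave room for. The 95% interval of the log2 fold change lay wholly between the FC limits, which are -0.51 and 0.38 on this scale, for 68 of 81 members. The same held for 5837 of the 7625 genes of like level and for 72 of the 78 mitochondrial ribosomal protein genes. For the members, the interval lay above the lower limit for 77 and below the upper limit for 72. Single fold changes ran from -0.39 to 0.41, with 38 members above 0 and 43 below, and the median standard error was 0.10.

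**Figure D1:**
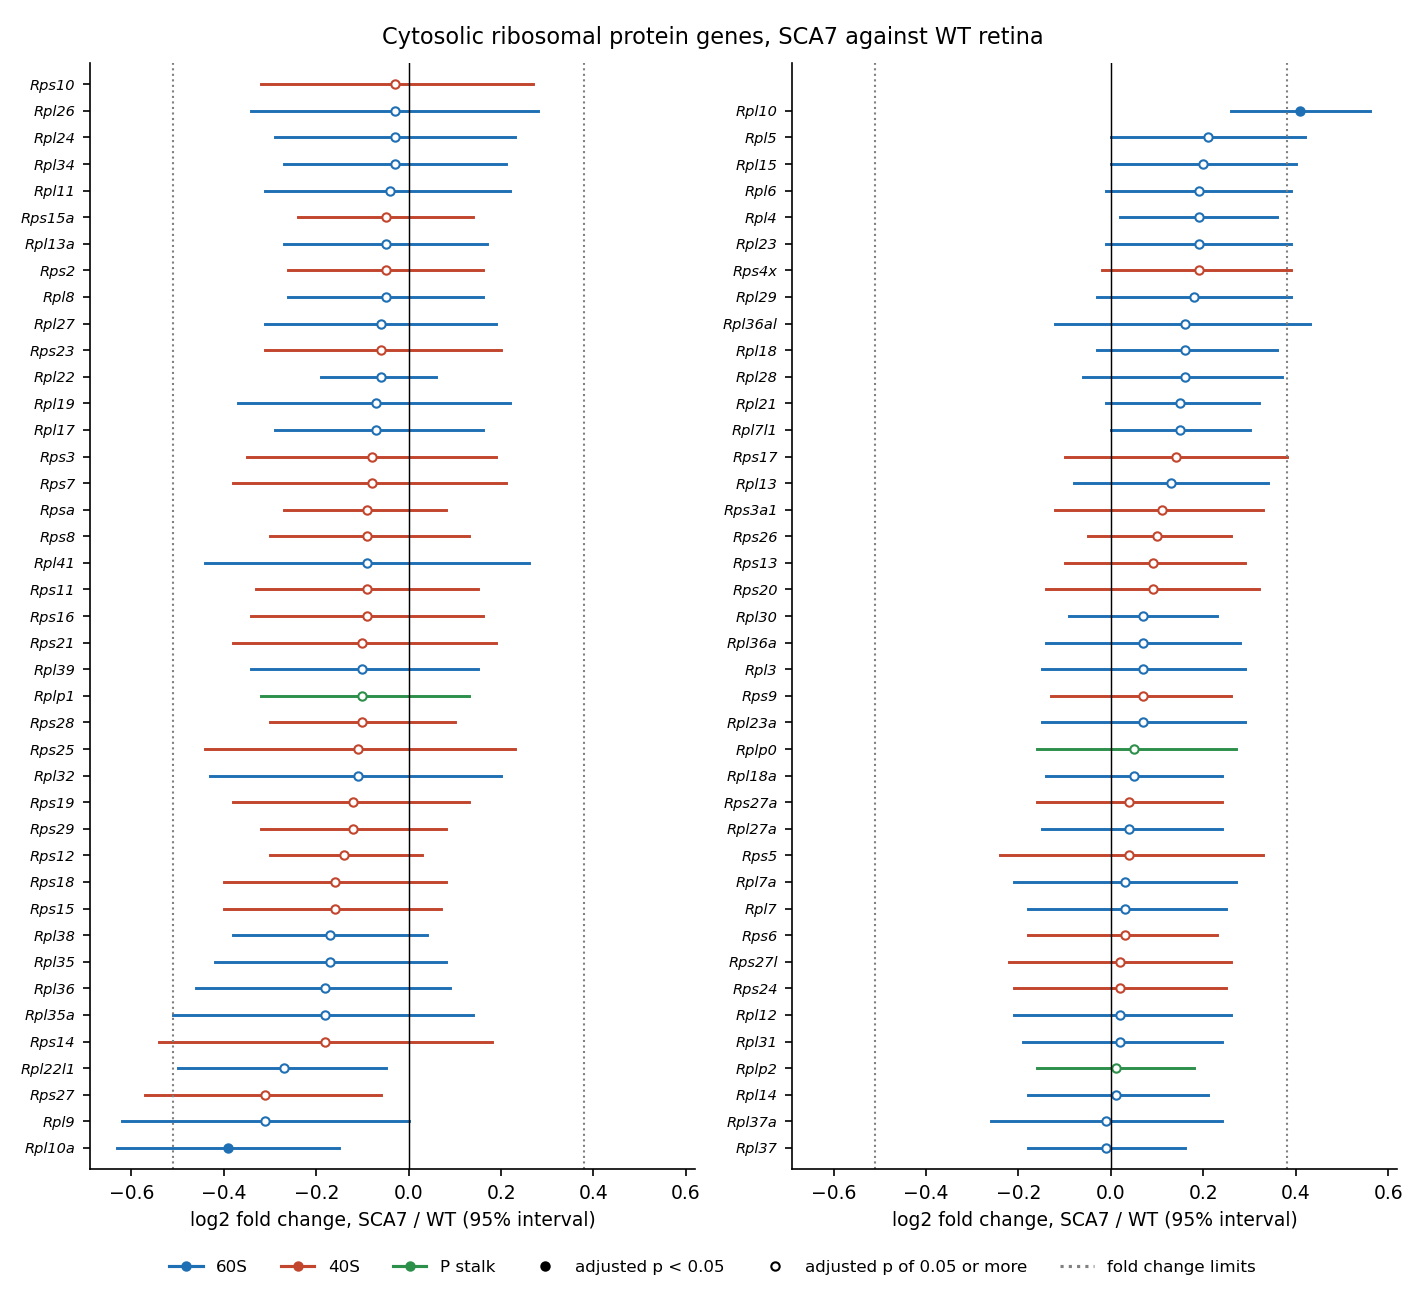
Log2 fold change (SCA7/WT) of the 81 members tested, ordered by size from the bottom of the left column to the top of the right column, with lines for the 95% interval and colours for the subunit. Filled points passed an adjusted p of 0.05 (edgeR), dotted lines mark the FC limits at -0.51 and 0.38, and only *Rpl10* is both filled and beyond a limit, while *Rpl10a* is filled within them.

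*Rpl10*, the X-linked gene of a 60S protein (uL16) that sits close to the catalytic centre and is among the last to join the maturing subunit, was higher in the SCA7 retina. Its level was 37.4, 37.5, 41.4 and 34.2 CPM in the 4 WT libraries and 50.5, 51.1 and 48.2 CPM in the 3 SCA7 libraries. All SCA7 libraries lay above all WT libraries, a pattern that 19.3% of the genes tested share and that no other member shows. The means were 37.6 ± 2.92 (SD, n = 4) and 49.9 ± 1.54 CPM (SD, n = 3), which is 0.41 on the log2 scale (SE 0.07, 95% interval 0.26 to 0.56) or 1.33-fold, with an adjusted p of 0.00082. The exact two-sided permutation test over the 7 libraries gave p = 0.0286, the smallest it can give.

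The rise of *Rpl10* lay just past the FC limit. Without WT replicate 4, in which nearly all members were low, its log2 fold change was 0.37 and its FC fell within the limit, at an adjusted p of 0.00077. It was 0.46 without WT replicate 3, in which nearly all members were high. *Rpl10* gave little of the ribosomal protein mRNA, at 3714.9 ± 284 RPK (reads per kilobase after size-factor scaling, SD, n = 4) in WT, and 26.3% of its 50-base windows occurred in no other annotated transcript. Its pseudogene copies held 0.419% of its own counts in WT and 0.467% in SCA7, and adding them to the gene left the log2 fold change at 0.41. The gene lies at chrX:74270812-74273135 on the plus strand of GRCm38.

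The other X-linked members did not pass the test. These are *Rps4x*, a 40S protein, *Rpl36a*, a 60S protein at the exit site, and *Rpl39*, a small protein lining the exit tunnel. Their log2 fold changes were 0.19 (95% interval -0.02 to 0.39), 0.07 (-0.14 to 0.28) and -0.10 (-0.34 to 0.15). With log2 CPM of *Xist* as a covariate, the value of *Rpl10* remained 0.41, and *Rps4x* was at 0.18 with an adjusted p of 0.028, 1 of 11 members higher in that fit (13.6% of members, beside 18.6% of all genes tested). *Rps4x* also passed, without that covariate, under scaling by total counts (0.38, adjusted p = 0.0027), with the length and GC correction (0.27, adjusted p = 0.006), without WT replicate 3 (0.27, adjusted p = 0.0084) and without WT replicates 3 and 4 (0.20, adjusted p = 0.017). *Rpl36a* passed under scaling by total counts (0.27, adjusted p = 0.018). *Rpl39* was lower with the replicate number as a block (edgeR, adjusted p = 0.023).

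*Rpl10a*, which encodes the 60S protein of the mobile L1 stalk (uL1) that guides tRNA out of the ribosome, was lower in SCA7. It stood at 190, 193, 224 and 158 CPM in WT and at 129, 155 and 153 CPM in SCA7. All SCA7 libraries were below all WT libraries, as for 18.3% of the genes tested, but WT replicate 4 and SCA7 replicate 2 were nearly level. The log2 fold change was -0.39 (SE 0.11, 95% interval -0.63 to -0.15, 0.761-fold), with an adjusted p of 0.02, so it passed the test but not the FC limit. Without SCA7 replicate 1, the lowest library, it was -0.31 at an adjusted p of 0.099. The exact permutation test gave p = 0.057. *Rpl10a*, at chr17:28328471-28331033 on the plus strand, is no paralog of *Rpl10* in spite of its symbol, and the products occupy different sites of the 60S subunit.

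*Rps27* was the other member whose groups did not overlap. It encodes a zinc-binding protein of the 40S subunit (eS27). The WT libraries held 107, 95.1, 135 and 92 CPM and the SCA7 libraries 84.8, 85.6 and 88.5 CPM. The SCA7 values were close together just under the lowest WT value. The log2 fold change was -0.31 (SE 0.12, 95% interval -0.57 to -0.06), with an adjusted p of 0.068. Its side of the threshold depended on the fit. It was lower at an adjusted p under 0.05 with DESeq2 (-0.30, adjusted p = 0.04), the *Xist* covariate (-0.31, adjusted p = 0.00044), the length and GC correction (-0.25, adjusted p = 0.032) and the replicate number as a block (-0.37, adjusted p = 7.2e-05). The same held without WT replicate 2 (-0.37), 3 (-0.18), 4 (-0.38) or both 3 and 4 (-0.22), at adjusted p-values between 0.0085 and 0.046.

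Next in size on the low side was *Rpl9* at -0.31 (95% interval -0.62 to 0.00), which had a WT range of 280 to 454 CPM and an SCA7 range of 266 to 303 CPM within which WT replicate 4 fell. *Rpl22l1* had a log2 fold change of -0.27 (-0.50 to -0.05, adjusted p = 0.067). *Rpl35a* and *Rpl36* both stood at -0.18, with intervals that crossed 0. None of these 4 genes of the 60S subunit passed the adjusted test in the main fit. All 4 were lower at an adjusted p under 0.05 without WT replicate 4 and with the replicate number as a block. With the *Xist* covariate *Rpl22l1*, *Rpl36* and *Rpl9* passed, and without both WT replicates 3 and 4 *Rpl22l1*, *Rpl35a* and *Rpl9* did. *Rpl22l1* also passed with no filter beyond 1 count. Without WT replicate 3 alone none of them passed.

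On the high side, *Rpl10* was followed by *Rpl5*, *Rpl15*, *Rpl4*, *Rpl6* and *Rpl23* of the 60S subunit and *Rps4x* of the 40S subunit. *Rpl5*, which carries 5S rRNA into the ribosome and when free binds the p53 inhibitor MDM2, had 121, 117, 144 and 103 CPM in WT and 137, 140 and 144 CPM in SCA7. The SCA7 values all fell inside the WT range, and the log2 fold change was 0.21 (95% interval 0.00 to 0.42, adjusted p = 0.12). *Rpl15* followed at 0.20 (0.00 to 0.40), and *Rpl4*, *Rpl6*, *Rpl23* and *Rps4x* at 0.19 each. Of these, *Rpl4* came closest to the threshold in the main fit, at an adjusted p of 0.086. It had 464, 483, 543 and 457 CPM in WT against 519, 559 and 590 CPM in SCA7. Its groups overlapped through WT replicate 3. All the genes named here after *Rpl10* were higher at an adjusted p under 0.05 without WT replicate 3 and without WT replicates 3 and 4. The same held under scaling by total counts and with the *Xist* covariate. None of them passed without WT replicate 4 or with the replicate number as a block.

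The P stalk and *Rpsa* showed no shift past the test. *Rplp0*, which anchors the stalk, stood at 177, 182, 219 and 154 CPM in WT and at 183, 198 and 188 CPM in SCA7. The SCA7 libraries lay inside the range of the WT libraries, and the log2 fold change was 0.05 (SE 0.10, 95% interval -0.16 to 0.27, adjusted p = 0.73). The means of *Rplp0* in the genotypes differed by less than the SD among the WT mice, 183 ± 26.9 CPM (SD, n = 4) against 190 ± 7.79 CPM (SD, n = 3). The acidic stalk proteins *Rplp1* and *Rplp2* stood at -0.10 (-0.32 to 0.13) and 0.01 (-0.16 to 0.18). *Rpsa*, a 40S protein also known as the laminin receptor, had 225, 229, 274 and 220 CPM in WT and 215, 223 and 229 CPM in SCA7, with a log2 fold change of -0.09 (-0.27 to 0.08).

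**Figure D2:**
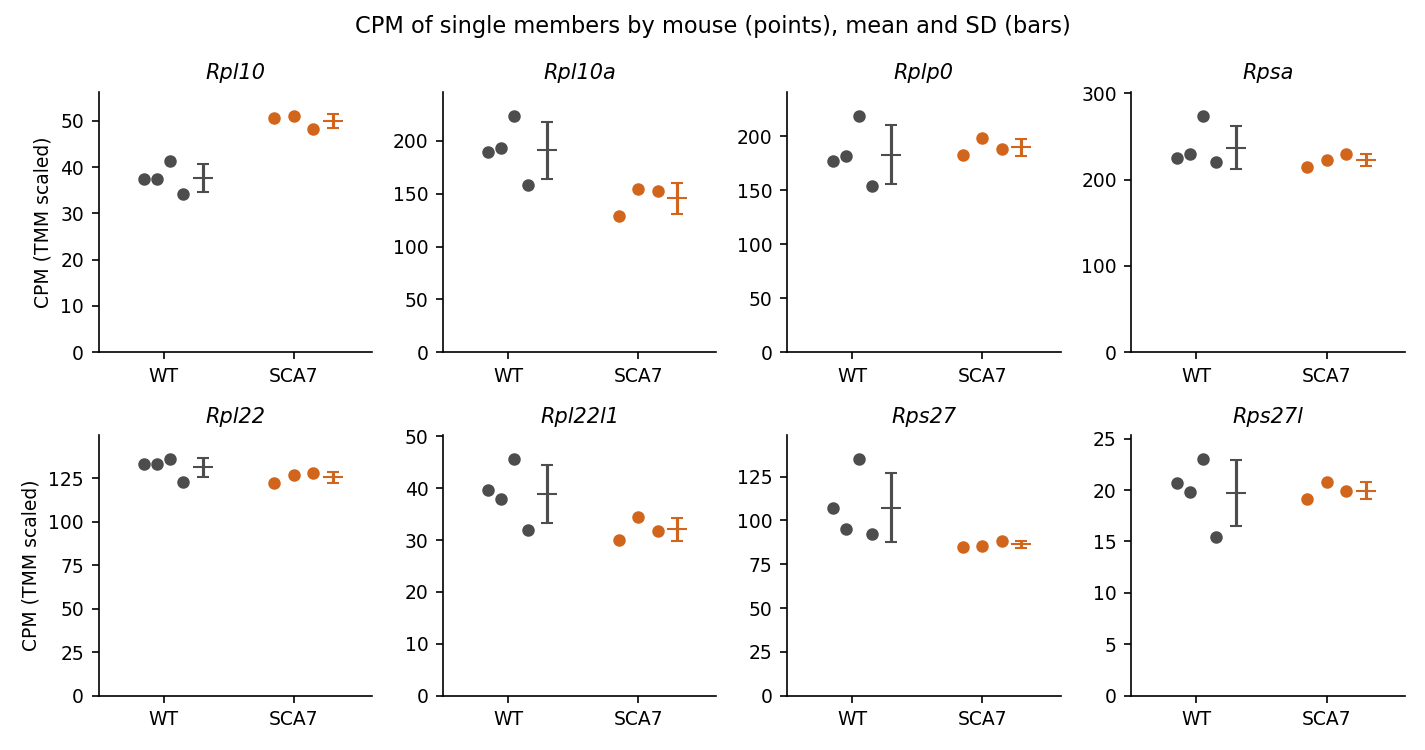
CPM after TMM scaling (vertical axes from 0, one scale per gene) of 8 members in each WT (grey, n = 4) and SCA7 (orange, n = 3) mouse, in order of replicate number, with the mean and SD beside the points. The SCA7 points of *Rpl10* lie above and those of *Rpl10a* and *Rps27* below all WT points, and in most panels WT replicate 3 is the highest and WT replicate 4 the lowest WT point.

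By subunit, the median log2 fold change was 0.02 over 46 genes of the 60S subunit tested, -0.07 over 32 genes of the 40S subunit and 0.01 over the 3 stalk genes. Below 0 were 22 of the 46 and 20 of the 32. The summed RPK of the 40S genes divided by that of the 60S and stalk genes together was 0.856, 0.829, 0.863 and 0.820 in WT and 0.801, 0.805 and 0.808 in SCA7. The SCA7 values were lower than every WT value, by a mean of 0.805 ± 0.004 (SD, n = 3) against 0.842 ± 0.021 (SD, n = 4), a small difference that is given without a test because it is a score over the members.

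Within WT retina the members covered a wide range of levels per length. Their median was 17010.7 RPK, against 732 RPK over the 16170 expressed protein-coding genes, and 65 members were among the 1000 of those genes with most RPK. The highest were *Rps14* (87927.1 ± 20491.8 RPK, SD, n = 4), *Rps15* (57118.0 ± 8882.6), *Rps3* (46055.8 ± 8510.2), *Rps29* (45064.4 ± 5899.7) and *Rplp1* (41540.8 ± 6232.9). Apart from the stalk gene *Rplp1*, these belong to the 40S subunit, and *Rps3* and *Rps15* encode parts of its head. The SDs of *Rps15*, *Rps3*, *Rps29* and *Rplp1* overlap from each to the next in this order, while those of *Rps14* and *Rps15* do not. The lowest were *Rpl36al* (2264.3 ± 424 RPK), *Rps27l* (2863.5 ± 459) and *Rps23* (3008.3 ± 532), so that the range among tested members was 38.8-fold. The order at both ends and the range depend on the length used. With the union of exons *Rps15* (48595.6 RPK) and *Rplp1* (41540.8) came first and *Rps14* stood at 23212.2 RPK and *Rps3* at 9780.3 RPK. *Rpl7l1* (1066.7 RPK) was then the lowest, with *Rpl36al* at 1266.9 RPK.

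The order of levels was nearly the same in every library. Spearman's rank correlation over the 81 members was 0.989 to 0.996 between WT libraries and 0.977 to 0.989 between a WT and an SCA7 library, a description over genes that share the libraries and their lengths. Most of the products are present once per ribosome, so the 38.8-fold range is a range of reads counted per length and not of protein. How many reads of a member were lost to its copies was not measured. A median of 64.1% of the 50-base windows of a member occurred in no other transcript of the annotation, with a range of 4.91% to 100%. The share of unique windows and the WT level were weakly related over the members (Spearman's rank correlation 0.169), and the 28 tested members with under 50% unique windows had a median log2 fold change of -0.00 against -0.03 for the other 53.

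**Figure D3:**
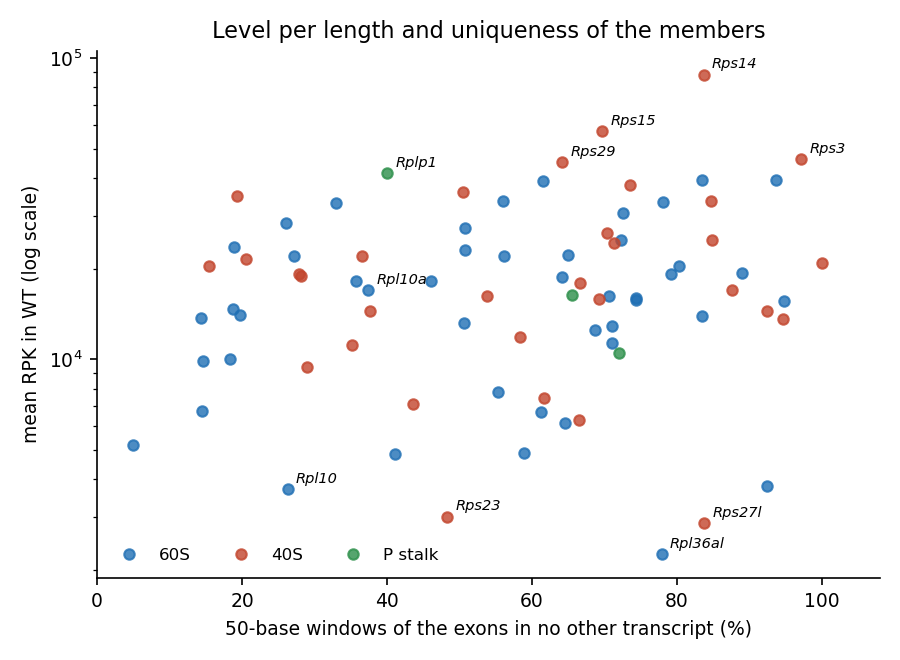
Mean RPK in WT (log scale) of the 81 members tested against the share of their 50-base windows that occur in no other annotated transcript, with colours for the subunit. Low and high levels occur across the range of uniqueness, and *Rpl10* (3714.9 RPK, 26.3% unique windows) and *Rps23* are low members at partial uniqueness while *Rpl36al* and *Rps27l* are low at high uniqueness.

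Members moved together from mouse to mouse, more than they differed between genotypes. For each library the median deviation of the members from their own mean over the 7 libraries was computed on the log2 CPM scale. It was 0.00, -0.02, 0.26 and -0.25 in WT replicates 1 to 4 and -0.08, 0.03 and 0.04 in SCA7 replicates 1 to 3. In WT replicate 3, 80 of the 81 members were above their own mean over the 7 libraries, and in WT replicate 4 none (0 of 81) was.

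The same libraries stood apart for some other sets of genes. In WT replicate 3 and WT replicate 4 the median deviation was 0.18 and -0.14 for the 78 mitochondrial ribosomal protein genes. It was 0.32 and -0.22 for the 99 protein-coding genes of like level with under 1000 bases of exon (union over transcripts), a limit that 11 of the members also meet, with a median of 1781 bases over the members, and 0.01 and -0.00 for all 7625 genes of like level. Across the 7 libraries the mean pairwise Pearson correlation of log2 CPM was 0.771 among members, 0.532 among mitochondrial ribosomal protein genes, 0.527 among the short genes and 0.0341 among the genes of like level. These correlations are descriptions over 7 libraries and include WT replicates 3 and 4. The part of gene length or of RNA quality in the shared movement was not tested further than by these values.

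The members varied more among the WT mice than among the SCA7 mice. The median SD of a member's log2 CPM was 0.209 within WT and 0.0739 within SCA7, beside 0.1 and 0.0491 for genes of like level. The short genes of like level had 0.23 and 0.064 and the mitochondrial ribosomal protein genes 0.146 and 0.0435. Without WT replicate 3 the median log2 fold change of the members was 0.08 and 18 members (22.2%, beside 17.5% of all genes tested in that fit) were higher at an adjusted p under 0.05 (edgeR). Without WT replicate 4 the median was -0.10, and 7 members (8.64%, beside 14.1% of all genes) were lower. With both left out, an alternative added once these values were seen, the members had a median of 0.01, with 13 members higher (16%, beside 18.1% of all genes) and 5 lower (6.17%, beside 14.9%). In that fit *Rpl10* stood at 0.42 (adjusted p = 3.9e-05) and *Rpl10a* at -0.39 (adjusted p = 0.0017).

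**Figure D4:**
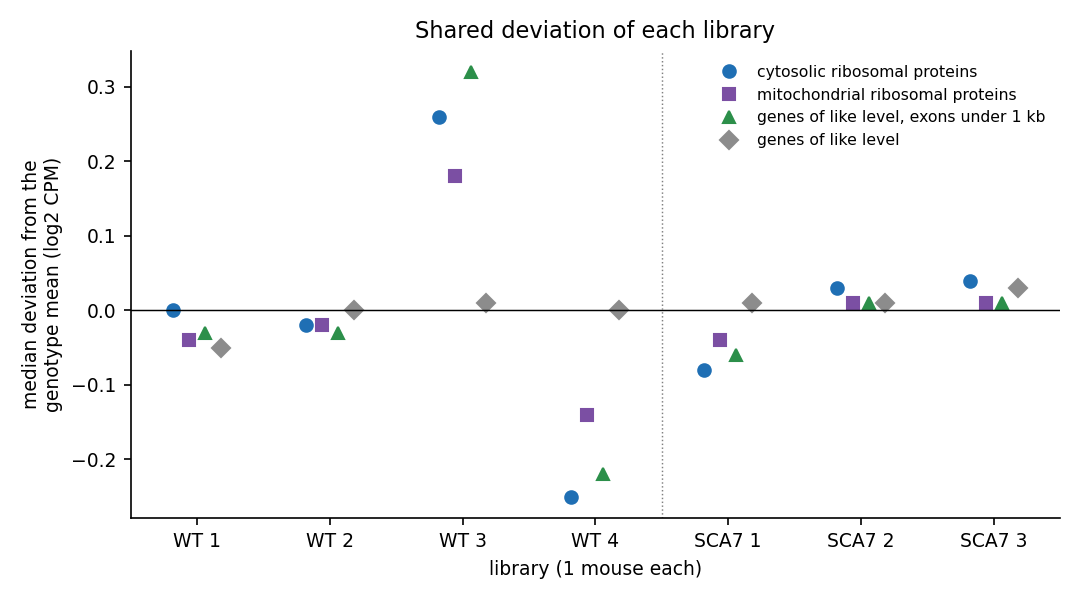
Median deviation of the genes from their own mean over the 7 libraries (log2 CPM, vertical axis) in each library for 4 sets of genes. The title printed on the axis names the genotype mean instead. The sets are the 81 cytosolic and 78 mitochondrial ribosomal protein genes. They also include 99 protein-coding genes of like level with short exons and all 7625 protein-coding genes of like level. WT replicate 3 is high and WT replicate 4 is low for the first 3 sets (0.26 and -0.25 for the cytosolic members), while the genes of like level stay between -0.05 and 0.03.

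The share of all counts on members depends on what else the library holds. It was 1.43%, 1.41%, 1.61% and 1.23% in WT and 1.52%, 1.64% and 1.65% in SCA7. Among the counts outside the 100 genes with most counts and the rod and cone markers, the share was 2.16% ± 0.303 (SD, n = 4) in WT and 2.18% ± 0.103 (SD, n = 3) in SCA7. The groups overlapped on both counts, and the means were closer once the most abundant genes and the photoreceptor markers, which fell, were taken out of the total. The summed CPM after TMM scaling was 15080.8 ± 2281.7 in WT and 14886.4 ± 786 in SCA7. With scaling by total counts alone the median log2 fold change was 0.17 for the members and 0.17 for all genes tested, so the members stood where all genes did.

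Sequence features of the promoters were counted next, and none was found in every member. Promoter entries of RefSeq (GRCm38.p6), of 300 bases each, were found for 65 of the 85 members, and *Rplp1* had none. A run of at least 8 C or T that begins or passes within 10 bases of the start was found, in any entry of a gene, in 44.6% of these members and in 16.2% of the 16413 other protein-coding genes with an entry. Over both strands, CCGGAAG (the core of an ETS site) was found in 40% against 13.3%, AAGATGG (the core of a YY1 site) in 15.4% against 7.24%, GGGCGG (a GC box) in 61.5% against 51.1%, and TATAAA in 10.8% against 14.3%. Such a match is a string of letters and not a bound site, and annotated starts can miss the base at which a TOP mRNA begins.

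For the members that results turned on, 30 bases around the annotated start (15 before it and 15 from it on) are given 5′ to 3′ on the strand of the gene, from RefSeq GRCm38.p6. Where a gene had 2 entries (*Rpl10a*, *Rps27l* and *Rpl22*), the entry nearest to the start of the gene in the annotation is given. Capitals mark a run of at least 8 C or T. They are shown so that the called gene *Rpl10*, the reference gene *Rplp0* and the paralog pairs can be set side by side.
Rpl10 (chrX:74270801-74270830, plus strand): gttgttacagtggaagataggccgcctata
Rpl10a (chr17:28328456-28328485, plus strand): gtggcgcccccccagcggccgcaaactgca
Rplp0 (chr5:115559452-115559481, plus strand): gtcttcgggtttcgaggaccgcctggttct
Rplp2 (chr7:141447636-141447665, plus strand): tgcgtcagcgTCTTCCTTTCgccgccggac
Rpsa (chr9:120127751-120127780, plus strand): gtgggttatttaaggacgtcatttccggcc
Rps27 (chr3:90213634-90213663, minus strand): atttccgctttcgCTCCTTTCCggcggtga
Rps27l (chr9:66946071-66946100, plus strand): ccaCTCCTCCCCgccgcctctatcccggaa
Rpl22 (chr4:152325711-152325740, plus strand): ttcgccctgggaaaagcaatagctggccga
Rpl22l1 (chr3:28805493-28805522, plus strand): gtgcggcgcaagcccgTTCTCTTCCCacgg
A run of 8 was present at the entries of *Rplp2*, *Rps27*, *Rps27l* and *Rpl22l1*. The longest run near the start was 3 bases at *Rpl10*, 7 at *Rpl10a*, 4 at *Rpl22* and 5 at *Rplp0* and *Rpsa*.

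Paralogs that can stand in for a member were compared with their partner. *Rpl22l1* encodes a close relative of RPL22, which holds down the expression of its paralog in other tissues. Per length it reached 31.3%, 30%, 35.2% and 27.3% of *Rpl22* in WT and 25.9%, 28.5% and 26% in SCA7, and the groups overlapped. *Rpl22* itself was at 133, 133, 136 and 123 CPM in WT and at 122, 127 and 128 CPM in SCA7, and was among the members that varied least between mice.

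*Rps27l*, a target of p53 in other settings, reached 18.7%, 20%, 16.4% and 16.1% of *Rps27* per length in WT and 21.8%, 23.5% and 21.7% in SCA7. Every SCA7 value was above every WT value, with a change in the log2 ratio of 0.33, but the exact permutation test gave p = 0.057 and, over the 5 pairs tested, an adjusted p of 0.24. The level of *Rps27l* differed by 0.02 on the log2 scale (95% interval -0.22 to 0.26), so the ratio followed *Rps27*. *Rpl7l1* made up 14% ± 1.26 of *Rpl7* (SD, n = 4) in WT and 15.1% ± 0.848 (SD, n = 3) in SCA7. *Rpl36al* made up 33.5% ± 1.92 of *Rpl36a* and 35.7% ± 1.22.

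The paralogs known from testis or muscle were near 0 in every library. *Rpl10l*, the testis partner of *Rpl10*, had 0 counts in all 7 libraries. *Rpl39l* had 1 to 11 counts, *Rpl3l*, the muscle partner of *Rpl3*, had 1 to 8, and *Rps27rt*, of whose windows only 8.92% are unique, had 2 to 8. *Rps4l*, annotated as a transcribed processed pseudogene and so outside the rule, stood at 17.5% ± 2.26 of *Rps4x* per length in WT and 17.1% ± 0.712 in SCA7.

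Pseudogene copies took up few counts in sum, with *Rpl36* as the largest exception among tested members. There were 848 pseudogenes that share at least 10 windows of 50 bases with 80 of the members, 143 of them at 0 counts in every library. Together they held 0.525% to 0.574% of the members' counts in WT and 0.548% to 0.55% in SCA7. The copies of *Rpl36* held 21.9% of its counts in WT and 22.3% in SCA7, nearly all from *Rpl36-ps12*, which had 1265 to 2030 counts in WT and 1442 to 2742 in SCA7 (log2 fold change -0.15, adjusted p = 0.64). The copies of *Rpl29*, which followed, held 7.24% and 5.37%. Of the 92 with enough counts, 4 were upregulated (4.35%, beside 7.47% of all genes) and 3 downregulated (3.26%, beside 7.91%), and the copies named next were chosen after their values were seen. *Gm8420*, a copy of *Rpl15* at chr1:51940664-51941261, had 1, 0, 3 and 4 counts in WT and 314, 489 and 562 in SCA7, an adjusted p of 2.6e-08. The WT libraries were at or near 0 and the SCA7 libraries were not. All pseudogene copies of *Rpl15* together had 0.294% of the counts of *Rpl15* in WT and 2.79% in SCA7, and adding them to the gene gave it a log2 fold change of 0.24 in place of 0.20.

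*Gm5921*, which shares 320 windows with *Rps2*, had 8, 3, 2 and 4 counts in WT and 38, 49 and 45 in SCA7 (adjusted p = 0.0001). *Rpl36-ps9* moved the other way, with 32, 19, 11 and 15 counts in WT and 6, 5 and 5 in SCA7 (adjusted p = 0.0036). The parent genes had log2 fold changes of -0.05 (*Rps2*) and -0.18 (*Rpl36*), neither past the test. Reads shared between a gene and a copy may be dropped or assigned to either, so single values of copies and of members with few unique windows are uncertain.

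*Fau* and *Rack1*, ribosomal protein genes with names outside the rule, did not pass the test. *Fau*, whose product includes a 40S protein, stood at -0.10 (95% interval -0.32 to 0.11) and *Rack1*, a scaffold on the 40S head, at -0.03 (-0.30 to 0.25). Of the 78 mitochondrial ribosomal protein genes, 0 were upregulated and 1 was downregulated, with a median of -0.01, with 16.7% at an unadjusted p under 0.05 beside 39.7% of all genes tested.

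Genes that build, use or control ribosomes were described by the same counts. Ribosome biogenesis factors (35 tested), initiation factors (29), elongation and termination factors (12), other TOP mRNAs (8), snoRNA host genes (7) and regulators of ribosomal protein synthesis (17) had 0 upregulated and 0 downregulated genes each. Unadjusted p-values under 0.05 were found for 25.7%, 27.6%, 25%, 37.5%, 57.1% and 41.2% of them, beside 39.7% of all genes tested. Their median log2 fold changes were 0.03, 0.04, 0.07, 0.04, -0.20 and 0.09.

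Without the FC limit, 2, 3, 3, 1, 0 and 1 genes of these lists were higher and 3, 0, 0, 1, 1 and 1 were lower at an adjusted p under 0.05 (edgeR), out of 35, 29, 12, 8, 7 and 17 tested and beside 14.2% of all genes in each direction. All of them are named here, after their values were seen. *Polr1a* and *Polr1b*, subunits of the polymerase that makes ribosomal RNA, were higher at 0.23 and 0.28, while *Polr1c* of the same complex stood at -0.08 and did not pass. Also higher were the initiation factor genes *Eif3c*, *Eif3l* (0.25 each) and *Eif4b* (0.20), the elongation and termination factor genes *Eef2* (0.21), *Eif5a2* (0.27) and *Gspt1* (0.20), *Nap1l1* (0.26) and *Eef2k* (0.28), the kinase that inhibits EEF2. Lower were *Nhp2*, of the pseudouridylation machinery, at -0.33, the biogenesis factor genes *Gnl3* (-0.24) and *Mdn1* (-0.23), *Cct4* (-0.24), the snoRNA host gene *Snhg5* (-0.34) and *Rps6kb1* (-0.21), the gene of an S6 kinase.

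In the list of p53 and its targets, which free ribosomal proteins can raise through MDM2, 3 of the 15 genes tested were upregulated (20%, beside 7.47% of all genes) and 1 was downregulated (6.67%, beside 7.91%). At an unadjusted p under 0.05 were 46.7% of the list, beside 39.7% of all genes. *Cdkn1a*, a cell cycle inhibitor, rose from 2.32 ± 0.502 to 4.49 ± 0.823 CPM (log2 fold change 0.95, adjusted p = 0.002). *Bbc3*, a BH3-only gene of apoptosis, rose by 0.91 and *Trp53* itself by 0.44. *Gdf15*, a stress cytokine, fell by 0.70 at a level under 1 CPM. The median of the list was 0.09, and *Rpl5* and *Rpl11*, whose products bind MDM2, stood at 0.21 and -0.04 without passing the test.

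**Figure D5:**
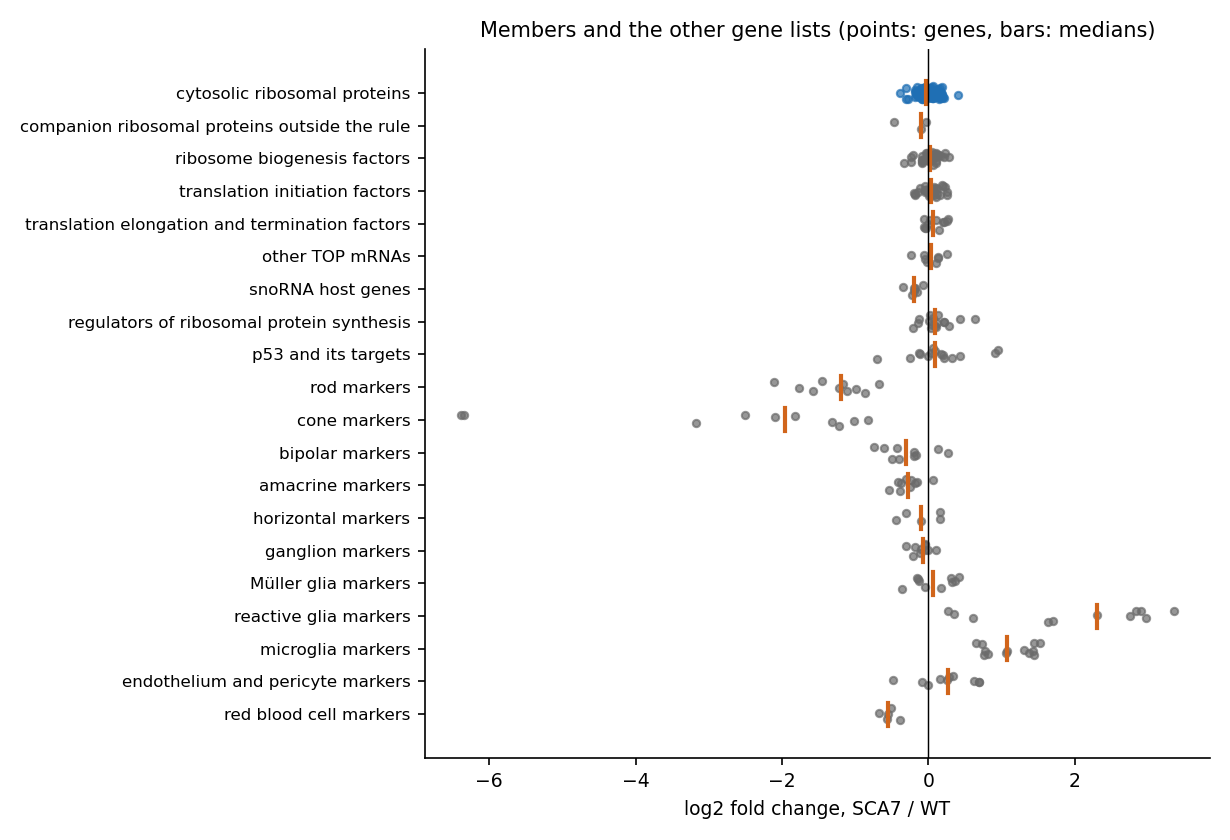
Log2 fold change (SCA7/WT, horizontal axis) of single genes (points, spread vertically at random) in the cytosolic ribosomal protein genes (blue) and in 19 other lists (grey), with the median of each list as a bar. The members lie between -0.39 and 0.41, rod and cone markers lie to the left of 0 with medians of -1.20 and -1.96, and reactive glia and microglia markers lie to the right with medians of 2.30 and 1.08.

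In the lists of other retinal cells, fewer genes passed both the adjusted p and the FC limit. Of the bipolar markers 2 of 10 were downregulated, of the amacrine markers 1 of 10, and of the horizontal (5) and ganglion cell (10) markers 0. Among the Müller glia markers 1 of 10 was upregulated, among the endothelium and pericyte markers 3 of 10, and among the red blood cell markers 1 of 5 was downregulated. Of all genes tested, 7.47% were upregulated and 7.91% downregulated. At an adjusted p under 0.05 without the FC limit, 7 of 10 bipolar markers were lower and 1 higher, 5 of 10 amacrine markers were lower, and 1 horizontal and 1 ganglion cell marker were lower. By that count 4 Müller glia markers were higher and 1 lower, and 6 endothelium and pericyte markers were higher and 1 lower. Without the FC limit, 14.2% of all genes tested were higher and 14.2% lower, and 1 gene of 10 is near such shares. The called genes with the largest change were *Pcp2* (-0.74) among bipolar, *Th* (-0.54) among amacrine and *Apoe* (0.42) among Müller glia markers, and *Opn1mw* (-6.39) among cone, *Serpina3n* (3.36) among reactive glia and *C1qc* (1.53) among microglia markers. Beside these shifts the members had a median of -0.03 and single values from -0.39 to 0.41.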

How the data were processed

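The authors deposited raw counts, whole numbers of single reads per Ensembl gene without normalization, for 52550 genes in 7 libraries. Per the submitters' processing notes, reads were mapped to mm10 with TopHat2 2.0.14 and Bowtie2 2.1.0 and counted with HTSeq 0.6.1. The HTSeq mode and strand option are not given in the sources used here. With single 50-base reads, members with near copies can lose reads or share them with pseudogenes.

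Counts were tested with edgeR 4.0.16 in R 4.3.3 (filterByExpr, TMM, glmQLFit with the robust option, no covariates), with Benjamini-Hochberg adjustment over the 20128 genes tested. The 4 WT and 3 SCA7 libraries were grouped by their labels. Standard errors and 95% intervals are those of the fit. RPK followed the study's definition, with DESeq2 1.42.0 size factors and the median transcript length. Exact two-sided permutation tests for single genes used log2 CPM with 0.01 CPM added. Positions, biotypes and lengths came from GENCODE M21 (GRCm38), which covered 52403 of the genes, and promoter sequences from RefSeq GRCm38.p6. Unique windows of 50 bases were counted against the annotated transcripts and not the genome, which departs from the plan of searching the genome. The precision of a value is given as its SD over mice, which includes counting error. The fit was tested on simulated counts with known changes.

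The members, the marker and pathway lists and the tests were chosen with earlier results of these data known. Named were *Rpsa*, the stalk, X-linked and called members, the 6 largest and 6 smallest fold changes, the 5 highest and 3 lowest WT levels, the paralog pairs, *Fau*, *Rack1* and the called gene of each list with the largest change in each direction. The single values of 2 genes are not reported here. Alternatives were other scalings and filters, DESeq2, limma-voom (limma 3.58.1), the replicate number as a block, *Xist* as a covariate, a correction for length and GC content (splines with 5 degrees of freedom), other thresholds, and each library left out.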

Additional observations from a re-analysis of the deposited data

Results flagged for a closer look

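For 36 groups of 4 WT values of single named members, the gap between the highest or lowest library and its nearest neighbour was compared with Dixon's 95% critical value, which chance passes in about 1 of 20 groups, and 2 groups passed. *Rpl39l* had 0.112 CPM in WT replicate 2 against 0.0153 to 0.0188 CPM in the other WT libraries, which is 8 counts against 1 count each. *Rpsa* had 274 CPM in WT replicate 3 against 220 to 229 CPM in the others. WT replicate 3 was the library in which 80 of the 81 members were above their mean over the 7 libraries.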

How the results depend on the processing

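Across 22 alternative fits the direction of *Rpl10* and *Rpl10a* did not change. *Rpl10* remained upregulated in 20 of them and came to 0.37, within the FC limit, with the replicate number as a block and without WT replicate 4. *Rpl10a* passed an adjusted p of 0.05 in 20 of them, and not with total counts only (-0.20, adjusted p = 0.11) or without SCA7 replicate 1 (adjusted p = 0.099). Of the 30 named members tested, 14 kept their sign throughout and 16 did not. With total counts only, which moved the median of all genes to 0.17, 7 members were upregulated, 34 were higher and 0 lower at an adjusted p under 0.05, where 36.2% and 7.43% of all genes tested were. *Rpl15* and *Rpl5* were then at 0.40, *Rpl4* and *Rpl6* at 0.39 and *Rpl23* and *Rps4x* at 0.38. The numbers higher and lower were 2 and 2 with DESeq2 (2.38% and 2.38% of members, beside 9.08% and 7.9% of all genes). They were 4 and 2 with no filter beyond 1 count (4.76% and 2.38%, beside 8.93% and 7.65%). With the *Xist* covariate they were 11 and 6 (13.6% and 7.41%, beside 18.6% and 17.3%). The length and GC correction gave 14 and 2 (17.3% and 2.47%, beside 16.6% and 13.9%). Leaving out 1 library at a time, 0 to 1 members were upregulated, 1 to 18 were higher, 0 to 7 were lower, and the median lay between -0.10 and 0.08. Of all genes in those fits, 8.45% to 17.5% were higher and 8.56% to 16.7% lower. Leaving out WT replicates 3 and 4 together, chosen after seeing the data, gave 13 higher and 5 lower (16% and 6.17%, beside 18.1% and 14.9%). Without an FC limit 1 member was called lower. The replicate numbers were not taken to pair the mice, since no label ties same-numbered mice to a shared litter or day and the deviations of same-numbered libraries correlated at 0.00527, 0.204 and 0.0893, although the animal numbers in the titles are close for replicates 1 to 3. The replicate block gave 0 upregulated, 1 higher and 17 lower members (21%, beside 17% of all genes tested). Number 4 occurs only in WT, so WT replicate 4 adds nothing to the genotype contrast of that fit, as where it is left out. The median was -0.09 with the block and -0.10 without WT replicate 4, and these fits are not separate checks of *Rpl10*. The cause of the other differences between fits was not tested. The share of counts on members moved to 2.16% (WT) and 2.18% (SCA7) outside the abundant genes, and the median WT level was 5284.8 RPK with the union of exons as length. Adding near-copy pseudogenes to their member, or scaling on the members alone, both chosen after seeing the data, kept 1 upregulated member. Counting depth limits the copies and paralogs with a few counts, and the spread among 4 and 3 mice limits the rest.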
